A study of Mus musculus with 16 samples.

Results

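The genes followed here are 10 genes of the insulin receptor and FoxO pathway, taken by symbol from the count tables of a whole-pancreas RNA-seq series: Insr, Igf1r, Irs1, Irs2, Grb10, Foxo1, Foxo3, Txnip, Sesn1 and Sesn3. All 10 were among the 24411 rows of the raw count table and among the 13660 genes that passed the filter on low counts. Pancreas was collected from 16 male C57BL6/J mice at 12 weeks of age on standard chow, each library from 1 mouse. The groups were 5 lean wild-type (WT) mice, 7 obese Lep ob/ob mice on control water, and 4 more of this genotype that drank a cholecystokinin receptor antagonist (CCKRi) for 6 weeks from 6 weeks of age. Of these 4 mice, 2 received proglumide at 0.1 mg/ml and 2 received lorglumide at 0.05 mg/ml, and WT mice also drank control water. Lep ob/ob mice lack functional leptin in every tissue, so all cells of the pancreas come from an animal that overeats. WT mice weighed 27.7 ± 3.22 g (SD, n = 5). The untreated Lep ob/ob group reached 51.0 ± 1.98 g (SD, n = 7) and the treated group 54.8 ± 2.22 g (SD, n = 4).

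The labels name 2 batches, called A and B here, without saying what they mark. In batch A there were 3 lean and 4 obese mice, and in batch B 2 lean, 3 obese untreated and all 4 treated mice. By the labels the lean mice came from in-house breeding and the obese mice were bought, whereas the methods of the study have both bought, so genotype and origin cannot be told apart where that holds. Depth on genes was 19.2 to 34.5 M counts per mouse in batch A and 9.87 to 15.9 M in batch B, of which the 50 most counted genes took 79.2 to 85.0% among the former and 49.3 to 77.1% among the latter mice. The mean log2 counts per M (CPM) of 17 islet markers ran from 4.16 to 4.69 for WT, from 4.87 to 7.12 for untreated and from 3.89 to 7.12 for treated Lep ob/ob mice. The same score of 10 adipocyte markers was 3.22 to 5.10, 3.32 to 7.54 and 4.48 to 6.90. The 13 acinar markers, which define the tissue, scored 11.8 to 13.4, 11.2 to 13.1 and 10.8 to 12.0. None of the markers in these 3 lists was at 0 in any group. In a whole tissue, fewer cells of a type and less RNA per cell cannot be told apart.

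Insulin and the insulin-like growth factors bind the receptor tyrosine kinases encoded by Insr and Igf1r. The activated receptors phosphorylate the docking proteins IRS1 and IRS2, which recruit phosphatidylinositol 3-kinase and lead to activation of AKT, while GRB10 binds the receptors and dampens their signal. AKT phosphorylates the FoxO transcription factors and keeps them out of the nucleus, and when insulin is low FoxO proteins switch on genes that include Irs2 and sestrins. In the pancreas this pathway sustains beta cell growth and survival and, in acinar cells, enzyme production. TXNIP binds thioredoxin, restrains glucose uptake and responds to glucose in beta cells, and the sestrins restrain mTORC1 and counter oxidative stress.

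The start-site regions of the genes were searched for 4 short motifs on both strands in the RefSeq promoter windows of build GRCm38.p6, which run from 250 bases before to 50 bases after the annotated start. Windows were found for 9 members, with 11 entries, out of 32851 windows in all. The core FoxO motif GTAAACA was in 3.65% of all windows, the insulin response motif CAAAACA in 6.28%, the E-box CACGTG in 7.15% and the cAMP response element TGACGTCA in 1.79%. Irs1, Irs2, Txnip and Sesn1 held at least 1 match, and their windows are shown as the members with a match. Capitals mark the matches, and the gene's own strand is printed.
Irs1 (chr1:82291390-82291689, minus strand): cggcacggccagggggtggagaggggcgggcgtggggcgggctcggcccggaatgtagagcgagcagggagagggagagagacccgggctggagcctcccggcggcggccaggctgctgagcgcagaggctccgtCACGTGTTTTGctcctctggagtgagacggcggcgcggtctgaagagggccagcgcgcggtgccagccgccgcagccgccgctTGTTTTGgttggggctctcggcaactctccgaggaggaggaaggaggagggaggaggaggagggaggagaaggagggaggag
Irs2 (chr8:11008880-11009179, minus strand): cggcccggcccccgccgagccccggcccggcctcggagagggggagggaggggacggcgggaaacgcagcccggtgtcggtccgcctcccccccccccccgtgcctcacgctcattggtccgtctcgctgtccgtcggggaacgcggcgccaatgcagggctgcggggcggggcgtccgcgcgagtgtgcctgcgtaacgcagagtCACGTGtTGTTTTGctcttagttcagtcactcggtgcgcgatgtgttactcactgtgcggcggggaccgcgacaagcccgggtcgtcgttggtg
Txnip (chr3:96557707-96558006, plus strand): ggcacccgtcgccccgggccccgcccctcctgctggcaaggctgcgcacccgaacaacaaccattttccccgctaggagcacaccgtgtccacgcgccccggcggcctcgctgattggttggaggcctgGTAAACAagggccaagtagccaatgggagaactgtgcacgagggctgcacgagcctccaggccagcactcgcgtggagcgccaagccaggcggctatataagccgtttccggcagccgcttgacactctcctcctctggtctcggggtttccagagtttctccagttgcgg
Sesn1 (chr10:41810324-41810623, plus strand): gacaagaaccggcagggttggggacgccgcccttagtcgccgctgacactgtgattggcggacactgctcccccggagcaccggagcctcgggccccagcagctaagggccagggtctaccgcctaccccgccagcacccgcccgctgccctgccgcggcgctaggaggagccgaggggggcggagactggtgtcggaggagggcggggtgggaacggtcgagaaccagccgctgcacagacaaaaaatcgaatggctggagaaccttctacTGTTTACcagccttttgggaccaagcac
In Irs1 the E-box and the first of 2 insulin response motifs overlapped by 2 bases. In Irs2 the E-box lay 44 bases before the start and the insulin response motif 37 bases before it. The FoxO motif lay 121 bases before the start of Txnip and 22 bases after 1 of 2 annotated starts of Sesn1. The window of the other Sesn1 start (chr10:41887189-41887488), which is not shown, held no match. A match describes the letters of the window and does not show that a factor binds there. The TGACGTCA letters were in none of the 11 member windows.

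Between Lep ob/ob and WT mice, Foxo3 rose, and neither receptor gene passed the test. Foxo3 was the only one of the 10 members to pass the test over all genes, with a log2 fold change of 0.59 ± 0.17 (SE) and an adjusted p of 0.0405 by edgeR. Sesn1 (0.64 ± 0.20, adjusted p = 0.0523), Sesn3 (0.56 ± 0.18, adjusted p = 0.0603) and Irs2 (0.78 ± 0.25, adjusted p = 0.0665) had estimates in the same direction and missed the threshold. The share of all genes called in this comparison was 9.07%, of which 5.93% of genes were higher, so 1 call in 10 members is near the background. At an unadjusted p under 0.05, 5 of 10 members were higher and none lower, where 12.2% of all genes were higher by that rule. DESeq2 with the same covariate called 4 members, all higher (Irs2, Foxo3, Sesn1 and Sesn3, adjusted p 0.0143 to 0.0378), where it called 12.4% of all genes. The median log2 fold change was 0.33 over the members and -0.02 over all genes tested.

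**Figure D1:**
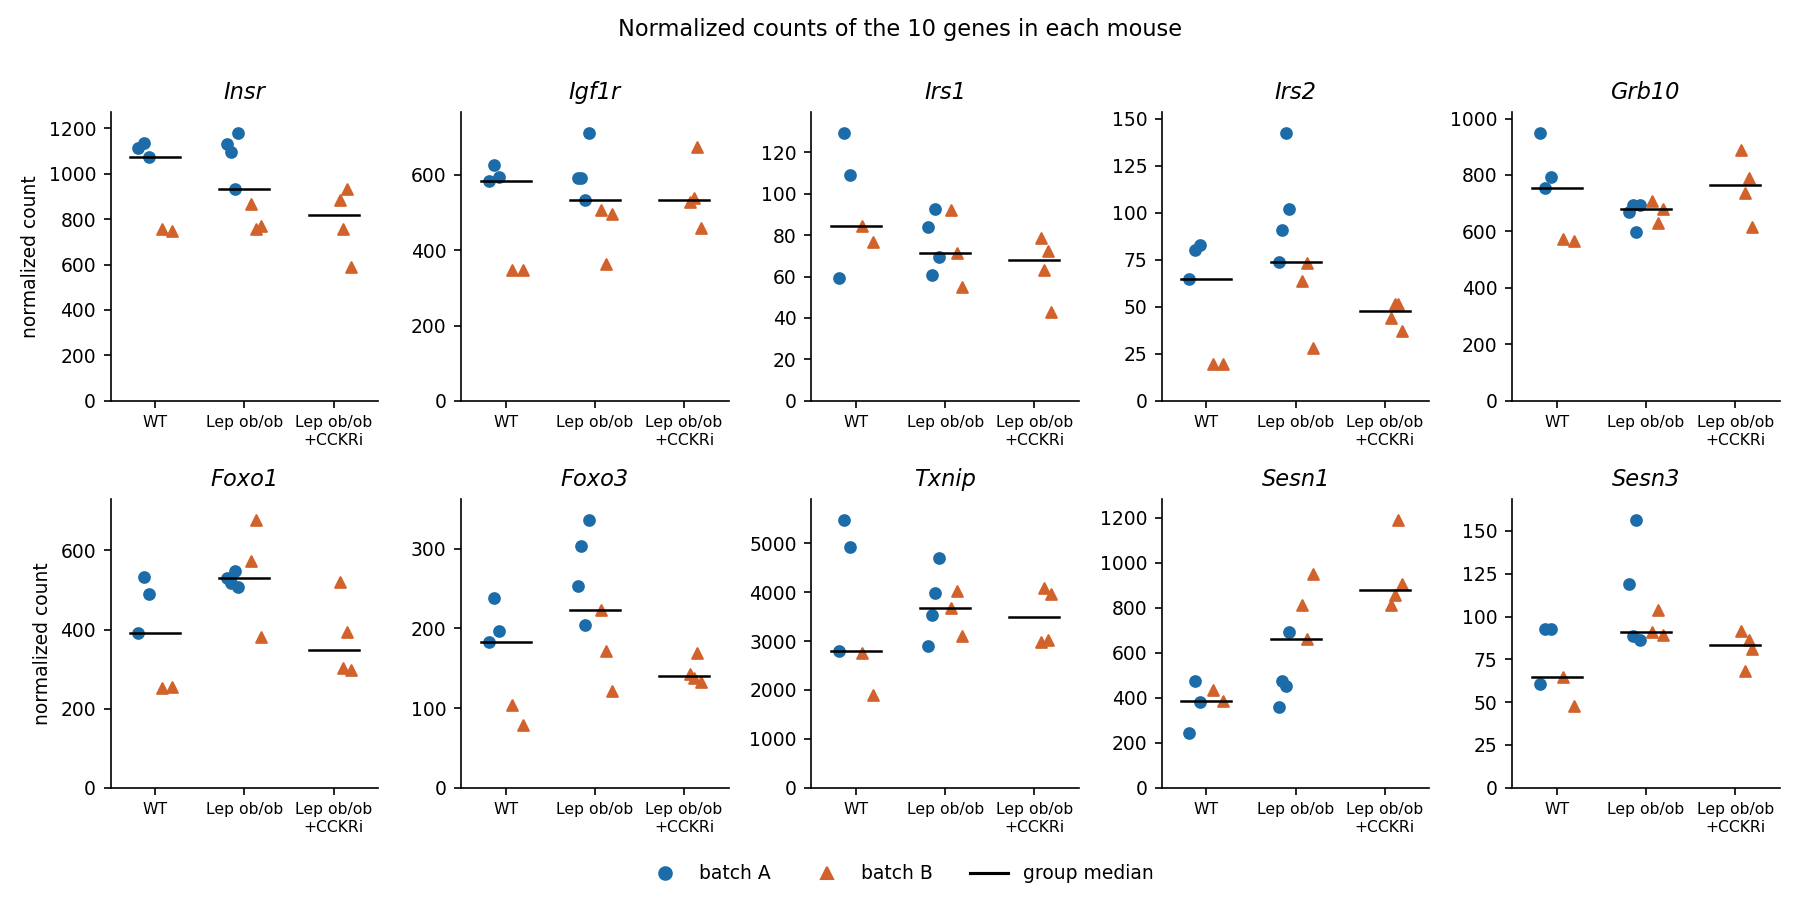
Normalized count (vertical axis, linear, from 0) of each of the 10 genes in each of the 16 mice, by group, with batch A as circles, batch B as triangles and a line at the group median. In batch B both WT mice sit below every Lep ob/ob mouse for 8 genes, whereas in batch A the groups overlap for all genes but Grb10.

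**Figure D2:**
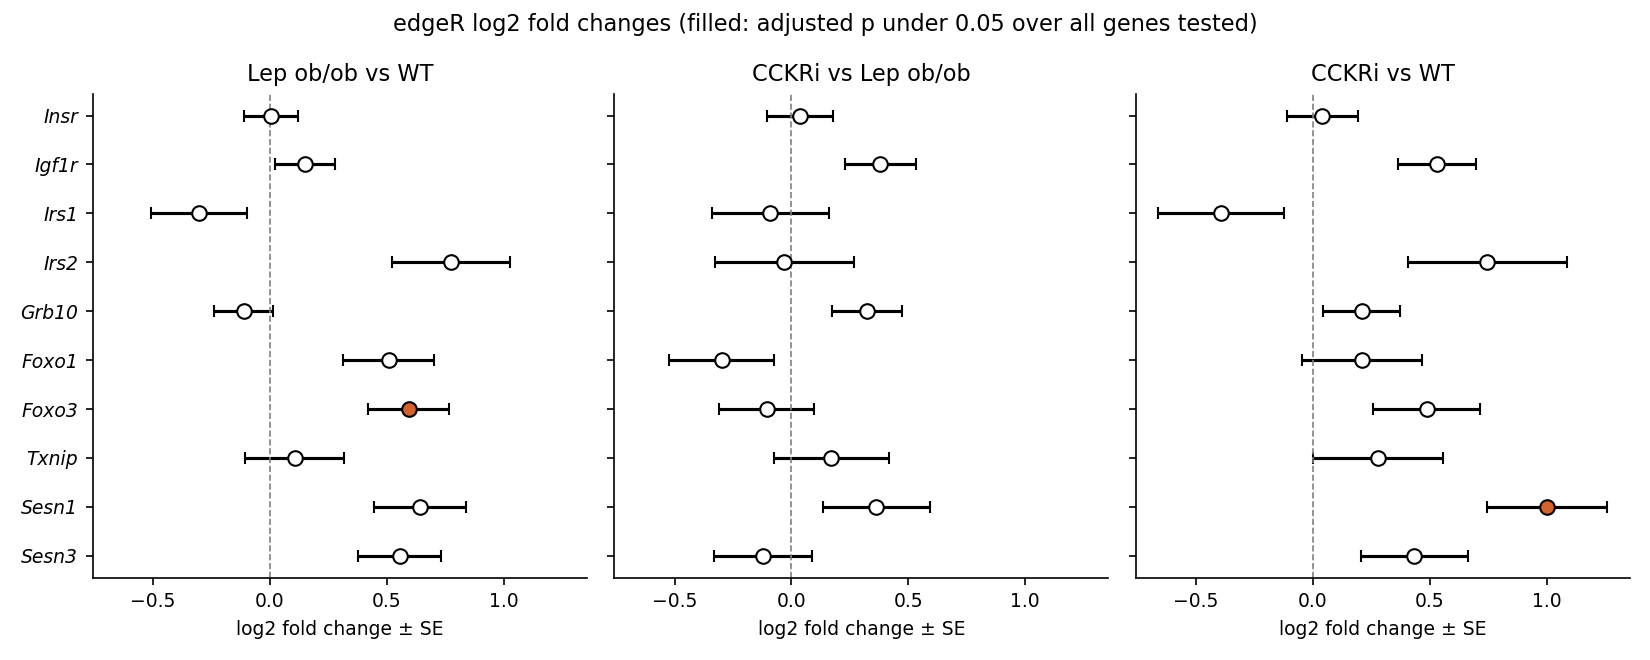
Log2 fold change with its standard error (horizontal axis) for the 10 genes in the 3 comparisons, from 1 edgeR model with batch. Filled points passed an adjusted p under 0.05, which were Foxo3 in Lep ob/ob against WT and Sesn1 in CCKRi-treated against WT mice.

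Insr (chromosome 8, 3122061 to 3279617, minus strand of GRCm38 in GENCODE vM21, 23 exon blocks) encodes the insulin receptor. Its normalized count, which is its raw count over the size factor of the mouse, was 757 and 749 in the WT mice of batch B and 1112, 1134 and 1074 in those of batch A. In Lep ob/ob mice it ran from 756 to 1180.3 with a median of 932, and CCKRi-treated mice had 885, 756, 932 and 588. The levels followed the batch and not the genotype, with a log2 fold change of 0.0039 ± 0.12 between Lep ob/ob and WT (adjusted p = 0.990). Insr was also the steadiest of the 10 genes: its residual SD after group and batch was 0.18 on the log2 scale, at the 10.9 percentile of the genes tested.

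Igf1r (chromosome 7, 67952827 to 68233668, plus strand), the receptor for insulin-like growth factors, stood at 583, 627 and 594 in WT mice of batch A and at 347 and 348 in those of batch B. Lep ob/ob mice ran from 362 to 712 with a median of 533. The groups overlapped, and the log2 fold change was 0.15 ± 0.13 (adjusted p = 0.518).

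Among the docking proteins, Irs2 (chromosome 8, 10984681 to 11008458, minus strand) had the largest estimate of the 10 genes and also the widest spread, with a residual SD of 0.43 on the log2 scale. WT mice had 64.6, 80.0 and 82.9 normalized counts in batch A and 19.5 and 19.5 in batch B. Lep ob/ob mice had 73.6, 91.1, 142 and 102 in batch A and 63.6, 73.4 and 28.2 in batch B. Every Lep ob/ob mouse of batch B was above both WT mice, while in batch A the mouse at 73.6 fell among the WT values. Irs1 (chromosome 1, 82233101 to 82291416, minus strand), the other docking protein, had an estimate of the opposite sign, at 59.2 to 129.42 with a median of 84.3 in WT and 55.2 to 92.4 with a median of 71.3 in Lep ob/ob. The groups overlapped in both batches and the log2 fold change of Irs1 was -0.30 ± 0.20 (adjusted p = 0.394). With single mice left out it ran from -0.43 to -0.16.

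Grb10 (chromosome 11, 11930508 to 12038683, minus strand), the adaptor that restrains both receptors, lay on opposite sides of WT in the 2 batches. In batch A the WT mice had 949, 753 and 792 normalized counts and the Lep ob/ob mice 670, 695, 598 and 692, so every Lep ob/ob mouse was lower. In batch B the WT mice had 574 and 568 and the Lep ob/ob mice 709, 629 and 678, so every Lep ob/ob mouse was higher. The pooled log2 fold change was -0.11 ± 0.13 (adjusted p = 0.632), and -0.18 to -0.025 with single mice left out. The interaction of genotype and batch was 0.50 ± 0.19 on the log2 scale, with an unadjusted p of 0.0194 and an adjusted p of 0.394 by edgeR.

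Foxo3 (chromosome 10, 42181841 to 42276755, minus strand) encodes a FoxO factor of stress resistance and autophagy. WT mice had 183, 238 and 197 normalized counts in batch A and 104 and 78.9 in batch B. Lep ob/ob mice had 254, 304, 204 and 336 in batch A and 223, 172 and 122 in batch B. Foxo3 was higher in all 3 Lep ob/ob mice of batch B than in both WT mice, and in batch A only the mouse at 204 fell below the highest WT value. The within-batch difference of mean log2 values was 0.40 in A and 0.88 in B, which corresponds to 1.32-fold and 1.84-fold. The call rested on the pooled fit: leaving out any of 8 single mice (WT 5489, 5494, 58 and 59, Lep ob/ob 472, 447 and 461, and CCKRi 72) gave adjusted p values of 0.0535 to 0.139 with estimates of 0.48 to 0.61. It was also lost without the batch covariate (0.328 by edgeR and 0.290 by DESeq2), with only the groups compared (0.0587), in batch A alone (0.164) and in batch B alone (0.204).

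Foxo1 (chromosome 3, 52268336 to 52353221, plus strand), the main FoxO factor of insulin-regulated metabolism, had 392, 532 and 491 normalized counts in WT mice of batch A and 253 and 255 in those of batch B. Lep ob/ob mice had 532, 518, 547 and 508 in batch A and 573, 677 and 382 in batch B. The WT mice of batch B stood lowest. The log2 fold change was 0.51 ± 0.19 (unadjusted p = 0.0183, adjusted p = 0.117). Among the 10 members, Foxo1 had the smallest p for an interaction of genotype and batch (0.87 ± 0.27 on the log2 scale, unadjusted p = 0.00657, adjusted p = 0.342).

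Sesn1 (chromosome 10, 41809935 to 41908424, plus strand), a sestrin that is a textbook target of p53 and FoxO, had 244, 474 and 382 normalized counts in WT mice of batch A and 435 and 386 in those of batch B. Lep ob/ob mice had 358, 476, 453 and 694 in batch A and 811, 661 and 949 in batch B. CCKRi-treated mice had 814, 859, 1191 and 905, of which only 1191 lay above the highest untreated mouse. In batch B the 7 obese mice, treated or not, were all above the 2 WT mice, while in batch A the groups overlapped. The within-batch difference between Lep ob/ob and WT corresponded to 1.36-fold in A and 1.95-fold in B.

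Sesn3 (chromosome 9, 14275067 to 14333101, plus strand), the sestrin most closely tied to FoxO factors, was much lower in level. WT mice had 60.6, 92.9 and 92.9 normalized counts in batch A and 64.9 and 47.6 in batch B. Lep ob/ob mice had 119, 88.7, 156 and 86.5 in batch A and 90.7, 104 and 89.0 in batch B. The groups overlapped in batch A and not in batch B, with within-batch differences of 1.35-fold and 1.68-fold.

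Txnip (chromosome 3, 96557957 to 96561883, plus strand), the thioredoxin-binding protein, was the most abundant member and its groups overlapped. WT mice had 2796, 5478 and 4917 normalized counts in batch A and 2749 and 1897 in batch B. Lep ob/ob mice ran from 2905 to 4690.2 with a median of 3687. The estimate was 0.11 ± 0.21 (adjusted p = 0.807), with a within-batch difference of -0.18 in A and 0.65 in B on the log2 scale. Of its exon bases, 19.4% overlap the opposite-strand gene Gm15441, which had 21 to 76 raw counts per mouse. Likewise 30.9% of the exon bases of Irs1 overlap Gm9747, 7.78% of Foxo1 overlap Gm20402 and 2.56% of Irs2 overlap 9530052E02Rik on the opposite strand. The kit keeps strand, but the strand setting used in counting is not given in the sources used here, so reads of these pairs may not be told apart. Stretches of 50 bases shared with transcripts of other genes made up at most 0.367% of any member.

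Levels between genes were compared per kb of exon, as the median normalized count per kb over the 5 WT mice. Txnip led at 895, followed by Sesn1 at 96.9, Grb10 at 82.8, Insr at 78.2, Foxo1 at 45.2, Igf1r at 34.7, Foxo3 at 24.2, Irs2 at 10.2, Irs1 at 9.22 and Sesn3 at 4.25. Txnip, from 607 to 1754 per kb, was the only member whose WT range overlapped no other. Neighbours in the rest of the order overlapped in their ranges, except Irs1 (6.48 to 14.2) and Sesn3 (3.12 to 6.09). The length is the union of all annotated exons, so genes with long or rarely used exons are placed too low.

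Split by batch, the difference between Lep ob/ob and WT mice was more positive in batch B for all 10 members, while for Irs1 and Grb10 its size was larger in batch A. The share of all genes with a more positive difference in batch B was not counted, so this is not read as particular to the members. In batch B, 8 of 10 members, all but Insr and Irs1, were higher in each of the 3 Lep ob/ob mice than in both WT mice, where 33.2% of all genes did not overlap and 17.5% were separated in this direction. In batch A only Grb10 was separated, lower in Lep ob/ob. There 21.1% of all genes did not overlap, of which 11.2% of genes were separated upward and the rest downward. The separation of Grb10 alone is therefore near the background. Over both batches no member was separated, where 4.18% of all genes were. When edgeR was run in each batch alone, 0 members were called in either, where 8.68% of all genes were called in batch A and 0.0570% in batch B. At an unadjusted p under 0.05 there were 2 of 10 members in batch A, where 21.4% of all genes passed, and 5 of 10 in batch B, where 16.9% did. Only 2 WT mice stand behind batch B, and all members are read from the same 2 libraries. The interaction of genotype and batch called 0 of 13189 genes by edgeR, with 1574 (11.9%) at an unadjusted p under 0.05. DESeq2 was not run for the interaction.

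**Figure D3:**
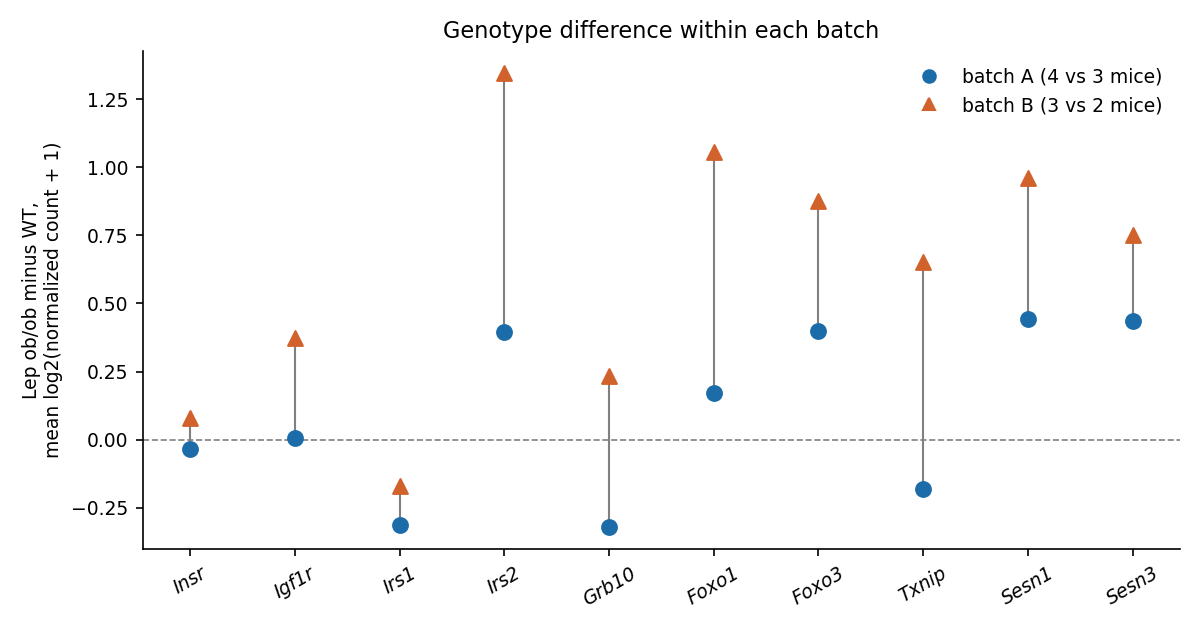
Difference between Lep ob/ob and WT mice in mean log2 of the normalized count plus 1 (vertical axis) for each gene, in batch A (circles, 4 against 3 mice) and batch B (triangles, 3 against 2 mice). The triangle lies above the circle for all 10 genes, from 0.08 against -0.03 for Insr to 1.34 against 0.39 for Irs2. All triangles use the same 2 WT mice, and the share of all genes with this order was not counted.

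The marker scores of other cell types moved with some members and not with others. After group and batch were removed, the residual log2 level over the 16 mice had a Pearson r with the adipocyte score of 0.81 for Foxo1, 0.78 for Irs2, 0.69 for Sesn3 and 0.60 for Irs1. It was 0.01 for Insr, 0.11 for Sesn1 and 0.14 for Foxo3. With the fibroblast score r was 0.78 for Irs2, 0.76 for Foxo1, 0.70 for Sesn3 and 0.62 for Irs1. For Insr, Sesn1 and Foxo3 it was -0.09, -0.14 and 0.14. Foxo1 and Irs2 each had an r of 0.76 with the macrophage score, and Insr had -0.48 with the islet score. Irs2 had its highest r, 0.84, with the endothelial score, and Foxo1 was opposed to the islet score at -0.78. These values are descriptions over mice that share libraries and scaling, and the part of other cell types in the differences was not tested beyond the following fits. With the adipocyte score as a covariate, 3 members were called (Irs2, Foxo3 and Sesn1), where 13.4% of all genes were. With the islet score 4 were (Irs2, Foxo1, Foxo3 and Sesn3), where 27.0% of all genes were, and all of these calls were higher in Lep ob/ob. Without the 4 mice of the highest adipocyte score (Lep ob/ob 417, 461 and 463 and CCKRi 69), Foxo3 (0.52 ± 0.13, adjusted p = 0.0161) and Sesn1 (0.72 ± 0.20, adjusted p = 0.0266) were called, where 12.3% of all genes were. In the same fit Irs2 stood at 0.30 ± 0.18 and Sesn3 at 0.37 ± 0.18, with adjusted p values of 0.337 and 0.221. Foxo1, at 0.51 over all mice, stood at 0.28 ± 0.12 (adjusted p = 0.171). With the islet score it stood at 1.12 ± 0.19 (adjusted p = 0.000744), and Irs2 at 1.27 ± 0.35 (adjusted p = 0.0139).

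**Figure D4:**
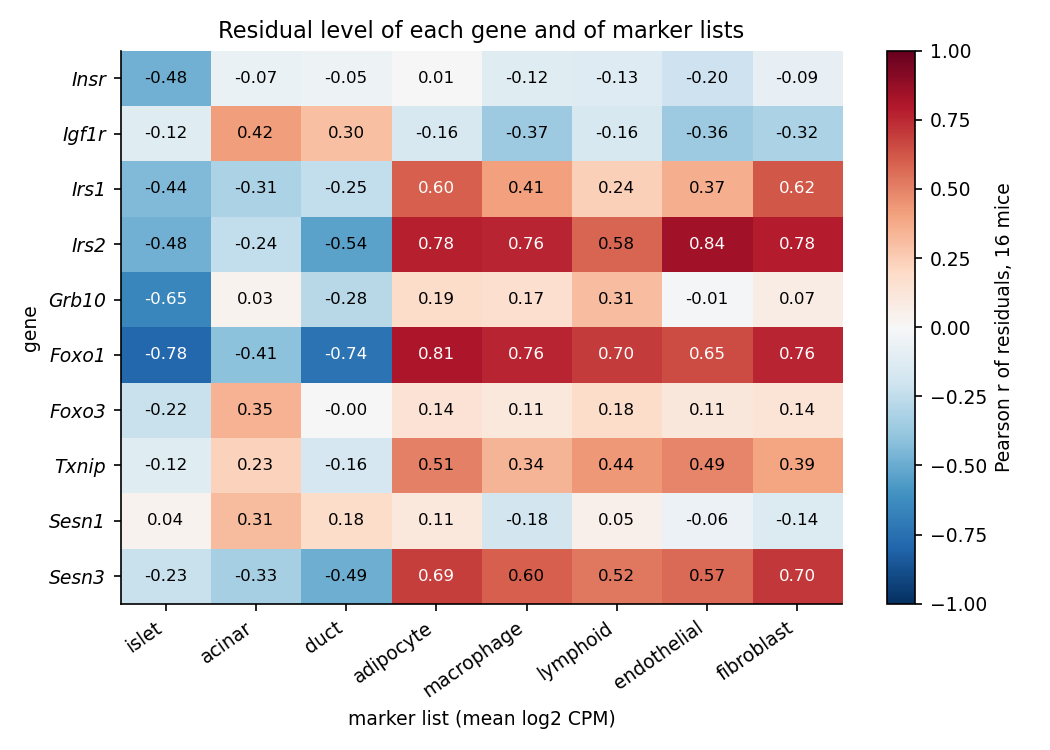
Pearson r over the 16 mice between the residual log2 CPM of each gene (rows) and the residual mean log2 CPM of 8 marker lists (columns), after group and batch. Foxo1, Irs2 and Sesn3 sit at 0.69 to 0.81 with the adipocyte list, and Insr, Foxo3 and Sesn1 at 0.01 to 0.14.

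The genes whose residual pattern was most like each member, among 10865 genes with a mean log2 CPM of at least 1, are given as a description. Insr was closest to Tmem259 (r = 0.91) and Arhgap21 (0.91), Igf1r to Mtus1 (0.91) and Zmynd11 (0.91), and Foxo1 to Rab35 (0.94) and Rxra (0.94). Irs1 was closest to Lama2 (0.86), Irs2 to Lrrc8c (0.91) and Cdh5 (0.90), and Grb10 to Arhgef18 (0.85) and Chd9 (0.85). Foxo3 was closest to Enpp1 (0.87) and Ptbp1 (0.87), Txnip to Btg1 (0.88) and Tbc1d22a (0.87), Sesn1 to Klf11 (0.87) and Slc19a2 (0.87), and Sesn3 to Chp2 (0.85) and Abca6 (0.83). Cdh5, which encodes the VE-cadherin of endothelial cells, is itself 1 of the 6 endothelial markers. Among the members, the highest residual r was between Insr and Igf1r (0.74), followed by Irs2 with Foxo1 (0.71) and Igf1r with Sesn1 (0.71).

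Antagonist treatment was compared with untreated Lep ob/ob mice to ask whether blocking cholecystokinin receptors shifts this pathway in obesity. By edgeR 0 of 10 members were called, where 0.0586% of all genes were. At an unadjusted p under 0.05, 2 of 10 members passed, both higher, where 14.3% of all genes passed and 7.54% were higher. DESeq2 called 0 members, where it called 0.673% of all genes. These 2 were Igf1r (0.38 ± 0.15, unadjusted p = 0.0240, adjusted p = 0.305) and Grb10 (0.32 ± 0.15, unadjusted p = 0.0459, adjusted p = 0.345). Sesn1 stood at 0.36 ± 0.23 (0.23 to 0.48 with single mice left out) and Foxo1 at -0.30 ± 0.23 (-0.49 to -0.11 likewise). The other 6 members stood at -0.12 to 0.17. Irs2, at -0.030 among these, stood at 0.87 ± 0.27 without the 4 mice of the highest adipocyte score (adjusted p = 0.529).

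Because batch B holds every treated mouse, the members were also compared within it, 4 treated against 3 untreated Lep ob/ob mice. No member was separated between these groups, where 8.71% of all genes were. Two-sided exact permutation tests of mean log2 values gave p = 0.171 for Foxo1 and Sesn3, the lowest of the 10, where 35 splits allow no p below 0.0571. Igf1r and Grb10, the members at an unadjusted p under 0.05 in the pooled fit, differed by 0.27 and 0.16 here. Their permutation p was 0.286 for both. Foxo1 had 519, 303, 393 and 297 normalized counts in treated mice against 573, 677 and 382 in untreated mice. The groups overlapped through untreated mouse 464, at 382, which lay below treated mice 69 and 74. Irs2, at 44.1, 51.2, 51.7 and 36.9 in treated mice, lay within the range of 28.2 to 73.4 of the untreated mice.

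The 2 drugs were given at different doses and are set side by side without a comparison. With proglumide, Foxo1 was at 519 and 303 normalized counts, Foxo3 at 142 and 138, Igf1r at 528 and 538 and Sesn1 at 814 and 859. With lorglumide, Foxo1 was at 393 and 297, Foxo3 at 169 and 132, Igf1r at 674 and 460.1 and Sesn1 at 1191 and 905. Mouse 69 on proglumide also had the highest adipocyte score of the treated mice, 6.90 against 4.48 to 5.15.

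Against lean WT mice, which also served the genotype comparison, CCKRi-treated mice differed in Sesn1, the 1 member called. Its log2 fold change was 1.003 ± 0.26 (adjusted p = 0.0267 by edgeR). All 4 treated mice were above all 5 WT mice, but 3 of these WT mice are in batch A, which holds no treated mouse. The share of all genes separated in this way was not counted. Here 5.57% of all genes were called and 4.22% were higher. DESeq2 called 2 members, Sesn1 and Igf1r, where it called 7.79% of all genes. By edgeR Igf1r stood at 0.53 ± 0.17 (adjusted p = 0.0810). In batch B the same 8 members that separated untreated Lep ob/ob mice from WT also separated treated mice from WT, where 21.6% of all genes did and 11.3% upward. The WT mice are the same 2 in both. The Sesn1 call was lost without WT mouse 58, WT mouse 59 or CCKRi mouse 74 (adjusted p 0.0868 to 0.112) and with the proglumide mice alone (0.83 ± 0.30, adjusted p = 0.196). It was also lost in batch B alone (adjusted p = 0.0969) and with the islet score as a covariate (0.0771). In that last fit Foxo1 was the 1 member called, at 0.84 ± 0.23 (adjusted p = 0.0285) against 0.21 without the score.

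Outside the members, 82 of 89 listed genes of the pathway were tested, and between Lep ob/ob and WT 9 were higher and 3 lower, where 9.07% of all genes were called and 5.93% were higher. The ligands were led by the insulin genes, which are also islet markers. Ins1 ran from 4835 to 6866 normalized counts in WT and from 10271 to 56189 in Lep ob/ob (2.27 ± 0.50, adjusted p = 0.00870), without overlap. Ins2 rose from 8549 to 12665 in WT to 22738 to 117761 (2.49 ± 0.47, adjusted p = 0.00327). Both are among the 17 genes of the islet score, so a fit with that score says nothing about them. None of the 82 genes passed in batch B alone, where 0.0570% of all genes did, so this count says nothing particular about them. The growth factors Igf1 (-0.0032 ± 0.13, adjusted p = 0.992) and Igf2 (-0.019 ± 0.21, adjusted p = 0.972) did not pass the test.

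Among the related receptor and adaptors, 2 of 8 tested rose, beside the same 5.93% of all genes. Grb14, an inhibitory adaptor of the same family as Grb10, ran from 12.9 to 19.5 normalized counts in WT and from 34.3 to 152.5 in Lep ob/ob (1.99 ± 0.32, adjusted p = 0.00104). All 7 Lep ob/ob mice were above all 5 WT mice. Insrr, the insulin receptor-related receptor, ran from 47.1 to 89.7 in WT and from 66.3 to 419 in Lep ob/ob (1.78 ± 0.46, adjusted p = 0.0223), with overlap. The Insrr estimate was 0.016 with the islet score (adjusted p = 0.983), whose WT and untreated Lep ob/ob ranges did not overlap. In batch B alone it was 0.84 (adjusted p = 0.566). The Insrr call was also lost without WT mouse 5489, 5492 or 5494 or Lep ob/ob mouse 464. Of 9 feedback inhibitors tested, Ptpn1, the phosphatase that dephosphorylates the insulin receptor, rose (0.45 ± 0.13, adjusted p = 0.0432). The Ptpn1 call was lost in 9 of 14 other settings and on leaving out any of 10 of the 16 mice (all but Lep ob/ob 447, 463 and 464 and CCKRi 69, 74 and 76), with adjusted p values of 0.0517 to 0.250. Among the genes of PI3K and AKT, Pik3r1, the main regulatory subunit, rose (0.61 ± 0.16, adjusted p = 0.0262). The Pik3r1 call was lost in 3 of 14 other settings and without WT mouse 5489, 58 or 59 or Lep ob/ob mouse 447, with adjusted p values of 0.0502 to 0.195.

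None of 7 genes of IGF binding and none of 14 mTORC1 genes passed the edgeR test, with 0 and 2 at an unadjusted p under 0.05 and 0 and 1 called by DESeq2. Over all genes these shares were 9.07%, 23.8% and 12.4%. Of 21 further FoxO family members and targets, Pdk4, the kinase that shuts down pyruvate dehydrogenase in fasting, rose from 9.42 to 41.2 normalized counts in WT to 29.2 to 153.2 (1.82 ± 0.39, adjusted p = 0.00722). Pdk4 passed in neither batch alone (adjusted p = 0.165 in A and 0.0617 in B). Cdkn1b, the cell cycle inhibitor p27, fell by 0.53 on the log2 scale (SE 0.13, adjusted p = 0.0164), from 274 to 384 in WT to 205 to 269.2, without overlap. Without WT mouse 59 the adjusted p of Cdkn1b was 0.0562. Tnfsf10, the death ligand TRAIL, fell by 0.68 (SE 0.12, adjusted p = 0.00188), from 141.2 to 200.0 in WT to 84.1 to 123. The 3 textbook FoxO targets that passed thus did not share a direction. Of 9 partners of Txnip, Txn1, thioredoxin itself, fell by 0.74 (SE 0.11, adjusted p = 0.000373), from 966 to 1170.0 in WT to 551 to 711. Mlxipl, the glucose-responsive factor ChREBP, rose (0.89 ± 0.27, adjusted p = 0.0490). The Mlxipl call was lost in 8 of 14 other settings, among them the islet score (0.49, adjusted p = 0.321) and batch B alone (0.42, adjusted p = 0.597). It was also lost on leaving out any of 13 of the 16 mice, all but WT 59, Lep ob/ob 461 and CCKRi 69.

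**Figure D5:**
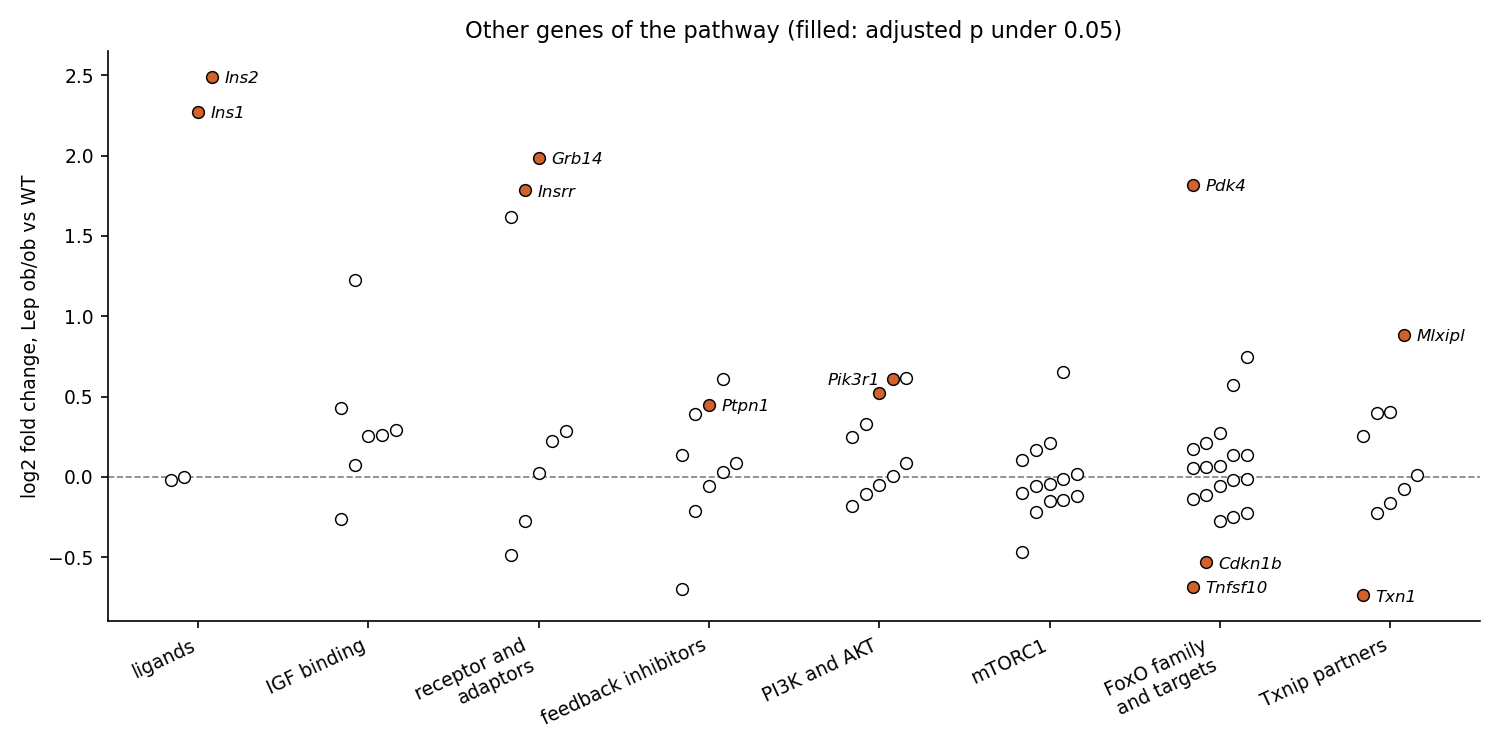
Log2 fold change between Lep ob/ob and WT mice (vertical axis) of the 82 other pathway genes tested, by list. Filled points passed an adjusted p under 0.05, 9 above 0 and 3 below, and names mark those given in the text.

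After antagonist treatment, against untreated Lep ob/ob mice, 0 of these 82 genes were called by edgeR and 0 by DESeq2, where 0.0586% and 0.673% of all genes were. At an unadjusted p under 0.05 there were 17 of 82, of which 6 were higher and 11 lower, where 14.3% of all genes passed. Cdkn1b (0.63 ± 0.16) and Ptpn1 (-0.59 ± 0.16) were among them, each opposite in sign to its genotype difference, with adjusted p values of 0.222 for both. By the same unadjusted rule all 8 macrophage markers (median log2 fold change -1.22) and 5 of 6 fibroblast markers (median -1.03) were lower. By that rule 921 of all 13660 genes were lower. In these 2 lists 0 markers passed the adjusted test by edgeR or DESeq2. The acinar list had 2 of 13 lower, the duct list 2 of 8 lower and 2 higher, and the remaining lists 0. The summed normalized counts of the macrophage list ran from 1562 to 16566 in untreated and from 2001 to 5804 in treated mice, those of the fibroblast list from 6006 to 24976 and from 4814 to 10261, with no marker at 0 in any group. Their part in these values was not tested. The untreated Lep ob/ob mice enter both comparisons, so the opposite signs are not independent.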

How the data were processed

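Pancreata were snap frozen and pulverised, and polyA RNA was sequenced with a strand-specific kit. Per the submitters' processing notes, STAR 2.7.9 and build mm10 were used, with trimming by Trim Galore 0.6.7 and cutadapt 3.5. The authors deposited raw counts per gene symbol. They also deposited a normalized signal, which equals those counts over a size factor for each library. The counter and annotation are not given in the sources used here.

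Counts of all 16 mice were fitted in 1 model of group and batch with edgeR 4.0.16 (R 4.3.3, limma 3.58.1; TMM, filterByExpr, quasi-likelihood test, Benjamini-Hochberg over 13660 genes, threshold 0.05). DESeq2 1.42.0 was run as an alternative, and exact permutation tests used log2(normalized count + 1) with scipy 1.17.1. Scores and residuals used log2 CPM with a prior count of 2. Among the 37 pairs of libraries within a group, the chi-square per gene was 8.09 to 409, so none was a duplicate. The models were also run on simulated data with known changes in the Lep ob/ob mice. That simulation held no batch difference, so it says nothing about how the batch term performed.

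The members and lists were chosen with earlier results of these data known. All members are named, together with the insulin and IGF genes, up to 3 rises and 3 falls per list with the smallest adjusted p among those called between Lep ob/ob and WT, and 2 genes of like residual pattern per member, apart from 2 genes that are not reported here. Cdkn1b and Ptpn1 in the antagonist comparison were singled out after their values were seen. Other normalizations, filters, covariates, single batches or drugs, and leaving out each mouse were tried as alternatives. Castor1 had no row, and 6 further listed genes did not pass the filter. The muscle list was left out of the plot of marker lists, since 1 of its 6 markers was tested.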

Additional observations from a re-analysis of the deposited data

Results flagged for a closer look

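Grb10 was flagged because its groups separated in opposite directions in the 2 batches. All 4 Lep ob/ob mice of batch A lay below the 3 WT mice, and all 3 of batch B lay above the 2 WT mice. Of all genes, 21.1% did not overlap in batch A and 33.2% in batch B. The share separated in opposite directions was not counted. The difference of the effects was 0.50 ± 0.19 (SE) on the log2 scale, higher in batch B. Its unadjusted p was 0.0194 and its adjusted p 0.394 by edgeR over 13189 genes, of which 0 were called. The islet score, with which the residual level of Grb10 had a Pearson r of -0.65 over 16 mice, was 6.73 to 7.12 in the Lep ob/ob mice of batch A and 4.87 to 5.91 in those of batch B, and its part in the result was not tested. Among 30 groups of members by condition, no mouse stood apart from its group by Dixon's test, where chance alone gives about 1 in 20. The WT and untreated Lep ob/ob groups pool both batches, so a gap between batches widens their range and can hide a single mouse.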

How the results depend on the processing

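The leave-out of the 4 mice with the highest adipocyte score and the alternatives for single pathway genes were chosen after seeing the data. Irs1, Irs2 and Sesn3 had under 160 normalized counts in every mouse, and whether depth limits their tests was not tested. Batch B, which holds all treated mice, has 2 WT mice. No paired analysis was possible because the groups have no mouse number in common.

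The count of members called in Lep ob/ob against WT, 1, became 0 without batch, with only the groups compared, in batch A, in batch B and at an adjusted p under 0.01, 4 by DESeq2 and with the islet score, 2 with RLE, with normalization factors from all but the top 50 genes, without the filter, with the acinar score and without the 4 adipocyte-high mice and 3 with the adipocyte score, and 0 to 3 when single mice were left out. The count of other pathway genes called in Lep ob/ob against WT, 12, became 0 in batch B, 19 with the islet score and 6 at an adjusted p under 0.01. The share of all tested genes called in Lep ob/ob against WT, 9.07%, became 5.84% without batch, 0.057% in batch B, 27% with the islet score and 3.8% at an adjusted p under 0.01. The count of other pathway genes called in CCKRi-treated against untreated Lep ob/ob, 0, became 6 without batch, 17 by DESeq2 without batch and 1 with the adipocyte score. The share of all tested genes called in CCKRi-treated against untreated Lep ob/ob, 0.0586%, became 4.17% without batch, 0.673% by DESeq2, 18.4% by DESeq2 without batch, 0.0366% with normalization factors from all but the top 50 genes, 0.0317% without the filter, 0.0224% with only the groups compared, 0.0142% in batch B, 0% with proglumide mice and with lorglumide mice, 0.154% with the islet score, 1.26% with the adipocyte score, 0.0878% with the acinar score and 0.0146% at an adjusted p under 0.01, and 0% to 0.0657% when single mice were left out. The count of members called in CCKRi-treated against WT, 1, became 2 by DESeq2, with the adipocyte score and with the acinar score, 0 in batch B, with proglumide mice and at an adjusted p under 0.01 and 4 without the 4 adipocyte-high mice, and 0 to 1 when single mice were left out. With the islet score the count stayed at 1, but the member called was Foxo1 and not Sesn1. The share of all tested genes called in CCKRi-treated against WT, 5.57%, became 10.4% without batch, 17% by DESeq2 without batch, 2.17% with only the groups compared, 0.0926% in batch B, 1.65% with proglumide mice, 9.64% with the islet score, 13.8% with the adipocyte score, 9.64% without the 4 adipocyte-high mice and 2.92% at an adjusted p under 0.01, and 3.7% to 7.17% when single mice were left out.

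In Lep ob/ob against WT, these uncalled log2 fold changes changed sign. Insr (0.0039) went to -0.018 without batch, -0.011 by DESeq2 without batch, -0.011 with only the groups compared, -0.0025 with the acinar score and -0.022 to 0.050 over single mice left out. Irs1 (-0.30) went to 0.061 with the islet score. Grb10 (-0.11) went to 0.20 in batch B and 0.18 with the islet score. Txnip (0.11) went to -0.18 in batch A, -0.025 without the 4 adipocyte-high mice and -0.061 to 0.26 over single mice left out. Igf1 (-0.0032) went to 0.011 without batch, 0.0054 by DESeq2, 0.020 by DESeq2 without batch, 0.0051 with RLE, 0.0057 with normalization factors from all but the top 50 genes, 0.0047 without the filter, 0.019 with at least 10 counts in every mouse, 0.26 in batch B, 0.077 with the islet score, 0.051 with the acinar score and -0.13 to 0.064 over single mice left out. Igf2 (-0.019) went to 0.046 without batch, 0.054 by DESeq2 without batch, 0.0054 with at least 10 counts in every mouse, 0.32 in batch B, 0.27 with the islet score and -0.17 to 0.074 over single mice left out. In CCKRi-treated against untreated Lep ob/ob, these uncalled log2 fold changes changed sign. Insr (0.035) went to -0.27 without batch, -0.28 by DESeq2 without batch, -0.0086 with only the groups compared, -0.015 with lorglumide mice, -0.027 without the 4 adipocyte-high mice and -0.056 to 0.15 over single mice left out. Irs1 (-0.090) went to 0.039 with proglumide mice, 0.093 without the 4 adipocyte-high mice and -0.21 to 0.058 over single mice left out. Irs2 (-0.030) went to 0.015 with proglumide mice, 0.020 with the islet score, 0.12 with the adipocyte score, 0.87 without the 4 adipocyte-high mice and -0.23 to 0.26 over single mice left out. Foxo3 (-0.11) went to 0.22 without the 4 adipocyte-high mice and -0.23 to 0.087 over single mice left out. Txnip (0.17) went to -0.058 without batch, -0.074 by DESeq2 without batch and -0.032 with only the groups compared. Sesn3 (-0.12) went to 0.0053 without the 4 adipocyte-high mice. In CCKRi-treated against WT, these log2 fold changes, uncalled in the model of group and batch, changed sign. Insr (0.039) went to -0.29 without batch, -0.30 by DESeq2 without batch, -0.0033 with lorglumide mice and -0.043 to 0.16 over single mice left out. Irs2 (0.75) went to -0.22 without batch and -0.22 by DESeq2 without batch. Foxo1 (0.21) went to -0.021 without batch, -0.033 by DESeq2 without batch and -0.054 with the acinar score, while with the islet score it was called at 0.84 (adjusted p = 0.0285). Foxo3 (0.49) went to -0.14 without batch and -0.15 by DESeq2 without batch. Txnip (0.28) went to -0.020 without batch and -0.028 by DESeq2 without batch.

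No estimate of changed sign passed the threshold, and neither did its counterpart in the model of group and batch. In CCKRi-treated against WT mice, Foxo1, Irs2 and Foxo3 were called under other settings, with the sign they had in that model. For each value above the cause was not tested.

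Foxo3 in Lep ob/ob against WT and Sesn1 in CCKRi-treated against WT mice kept their direction under every alternative run, and the settings that ended their calls stand beside them above. In CCKRi-treated against WT mice, Irs2 (1.17, adjusted p = 0.00598), Foxo3 (0.73, adjusted p = 0.0129) and Igf1r (0.58, adjusted p = 0.0251) were called beside Sesn1 without the 4 adipocyte-high mice. Igf1r was also called with the adipocyte score (adjusted p = 0.0320) and the acinar score (0.0316). The permutation test within batch B allows no p below 0.0571 at a pseudocount of 1 or 10, so it says nothing about stability. The interaction called 0 members with TMM or RLE.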
